A study of Homo sapiens with 6 samples.

Results

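The genes described here encode the proteins of the mitochondrial ribosome (mitoribosome). They were taken as all probe sets whose only gene symbol on the array's annotation was MRPL or MRPS with a number, with or without a letter A to C, or DAP3. That rule gave 169 of 49395 probe sets and 75 of 18132 genes, 47 of the large subunit (98 probe sets) and 28 of the small subunit (71 probe sets). It used no measured value. The samples were HCT116 cells, an established human colorectal cancer line, collected 72 h after lentiviral transduction with an shRNA against PNO1 (sh-PNO1, 3 arrays) or with a control shRNA (sh-Ctrl, 3 arrays), so both groups carried a lentivirus. PNO1 is a nucleolar factor of cytosolic small-subunit assembly. The labels name 1 PNO1 shRNA and do not say whether replicates were separate cultures, so p-values measure the spread between arrays, which may be technical. In such bulk RNA, a change in the cells present and a change of RNA per cell cannot be told apart.

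The mitoribosome translates the few messenger RNAs of the mitochondrial genome, which encode core subunits of the respiratory chain and of ATP synthase. Its rRNAs are made inside the organelle, while its proteins are encoded in the nucleus, made by cytosolic ribosomes and imported. Many of these proteins have bacterial counterparts, and the others were gained in mitochondria. Colorectal cancer lines express them broadly, as other dividing cells do.

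The deposited values were linear intensities. The median over all probe sets lay between 25.6 and 25.9 on every array. PNO1, read from its brightest probe set, had intensities of 535, 535 and 532 in sh-Ctrl and 105, 108 and 105 in sh-PNO1, a log2 difference of −2.33 ± 0.04 (SE; limma adjusted p = 3.32e-07). All 3 of its probe sets were lower, and the exact two-sided permutation test gave p = 0.1, the smallest value possible with 3 arrays against 3. The epithelial markers EPCAM, KRT8, KRT18 and KRT19 had mean sh-Ctrl intensities of 1878 to 2469, CDH1 of 232, CLDN7 of 408, CDX2 of 63.3, and VIL1 of 4.88. Read, as all genes below, from the brightest probe set, KRT19 rose by 0.37 ± 0.04 SE (limma adjusted p = 5.60e-04) and CDH1 by 0.31 ± 0.05 SE (adjusted p = 0.00222). CLDN7 stood at −0.15 ± 0.04 SE (adjusted p = 0.0266), lower, and the other 5 epithelial markers were not called on their brightest probe sets. Another probe set was called higher for KRT8 (1 of 8) and lower for KRT18 (1 of 2), and CDH1 was called on 1 of 2. The differences of KRT19, CDH1 and CLDN7 were of the size seen in the mitoribosomal genes, and their part in the results was not tested. Measured fibroblast, leukocyte and endothelial markers (13 genes) had means of 3.52 to 36.7 in sh-Ctrl and of 3.61 to 37.5 in sh-PNO1. None was called on its brightest probe set, while 1 other probe set each of COL1A1, COL3A1 and VWF was called higher and 1 of CD68 lower. The log2 gap between the 3′ and 5′ control probe sets of ACTB was 2.25 for sh-PNO1 replicate 2 and 1.73 to 1.87 elsewhere. For GAPDH this gap was −0.03, −0.02 and −0.01 in sh-Ctrl and −0.06, −0.08 and −0.06 in sh-PNO1, so it separated the groups, and its part in the results was not tested.

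More mitoribosomal protein genes rose than fell, all by less than 0.5 on the log2 scale. Each gene was read from its brightest probe set, and it was called at a limma adjusted p under 0.05 over all 49293 non-control probe sets. Of the 75 genes, 31 rose, 7 fell and 37 were not called. Over all 18132 genes read the same way 31.6% were called, 18.4% higher and 13.2% lower. The members thus had 41.3% higher against that 18.4%, and 9.33% lower against that 13.2%. Their median log2 difference was 0.12, against 0.03 over all genes, and 60 of the 75 lay above 0. Among the 169 probe sets 55 rose and 17 fell (32.5% and 10.1%), where 28% of all probe sets were called, 14.8% higher and 13.2% lower. The 2 groups of arrays did not overlap in 53 member genes (70.7%), beside 44.7% of all genes. These 53 were the 38 called genes and 15 others, 13 of which lay above 0. Mean sh-Ctrl intensities of the members ran from 151 to 2075, while the median over all probe sets was 25.6 to 25.9. The shares over all genes, here and below, were not limited to genes as bright as the members. Without the sh-PNO1 replicate 2 array, 26 genes rose and 5 fell. Leaving out any array in turn kept 25 of the 31 increases and 4 of the 7 decreases throughout. Shares of all genes with an array left out were not set beside these counts.

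**Figure D1:**
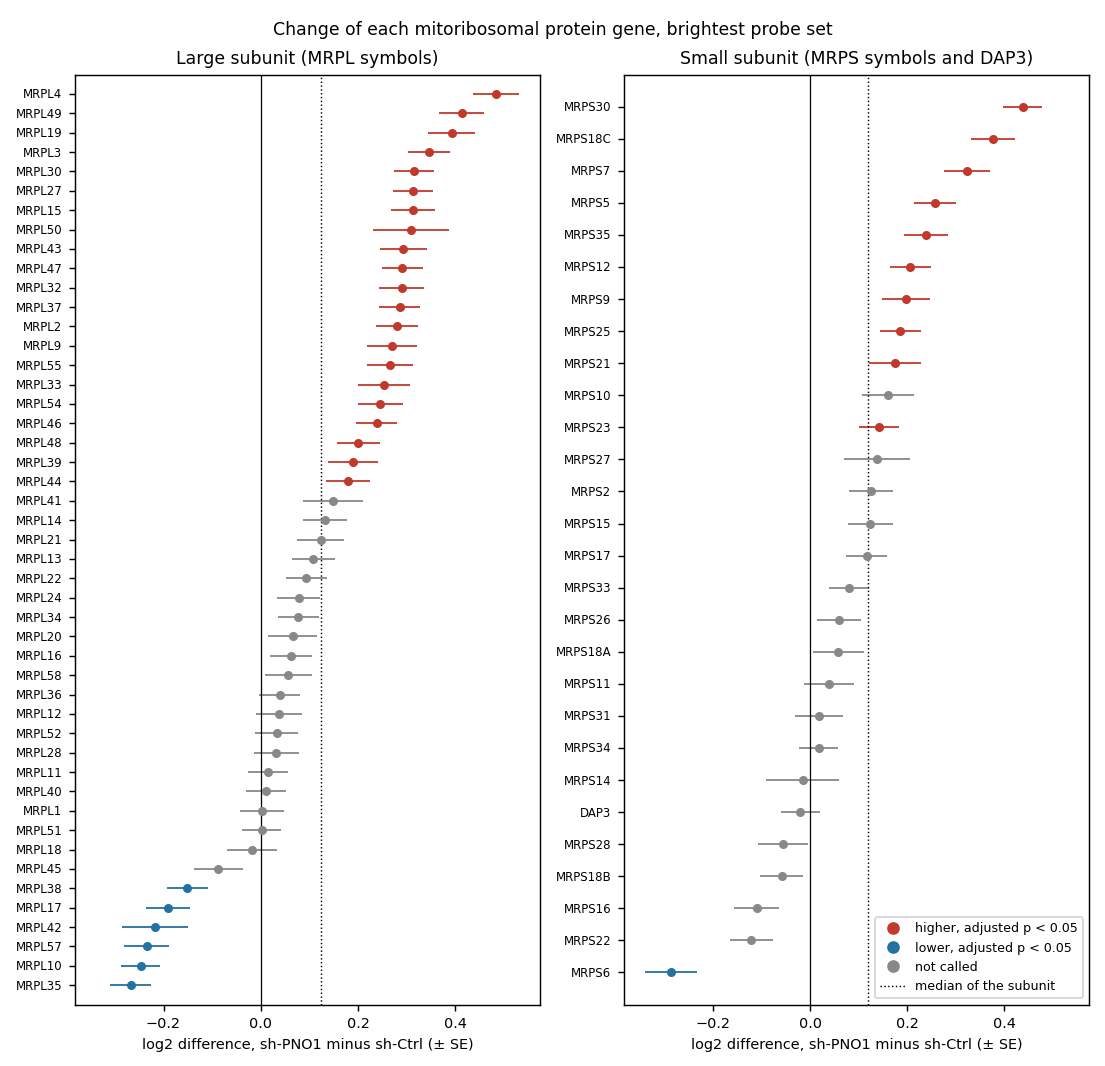
Log2 difference (horizontal axis, sh-PNO1 minus sh-Ctrl, bars ± SE from limma, 3 arrays a group) of each of the 75 genes on its brightest probe set, by subunit; red marks higher and blue lower at an adjusted p under 0.05, grey not called, and the dotted line is the subunit's median. Values run from −0.29 for MRPS6 to 0.48 for MRPL4, with medians of 0.12 in both panels.

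The large and small subunits had nearly the same median. It was 0.12 for the 47 large-subunit genes, of which 21 rose and 6 fell, and 0.12 for the 28 small-subunit genes, of which 10 rose and 1 fell. The medians differed by 0.0031, and this difference took either sign when single arrays were left out (−0.018 to 0.038). In shares, 44.7% of large-subunit and 35.7% of small-subunit genes rose, beside 18.4% of all genes. The shares that fell were 12.8% and 3.57%, beside 13.2% of all genes. No test of the difference between the subunits was made, since genes of 1 array are not replicates.

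The mean log2 value of each subunit was also taken on every array, relative to the sh-Ctrl mean. For the large subunit it stood at 0.13, 0.13 and 0.11 on the sh-PNO1 arrays and between −0.0087 and 0.01 on the sh-Ctrl arrays. For the small subunit it stood at 0.095, 0.10 and 0.10, against −0.0025 to 0.0014. Within an array the large-subunit mean exceeded the small-subunit mean by 0.12, 0.11 and 0.13 in sh-Ctrl and by 0.16, 0.15 and 0.13 in sh-PNO1; the size of this gap depends on the probes, and only its shift between arrays can be read. Each subunit separated the groups, whereas the gap between the subunits overlapped: the lowest sh-PNO1 array lay under the highest sh-Ctrl array.

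**Figure D2:**
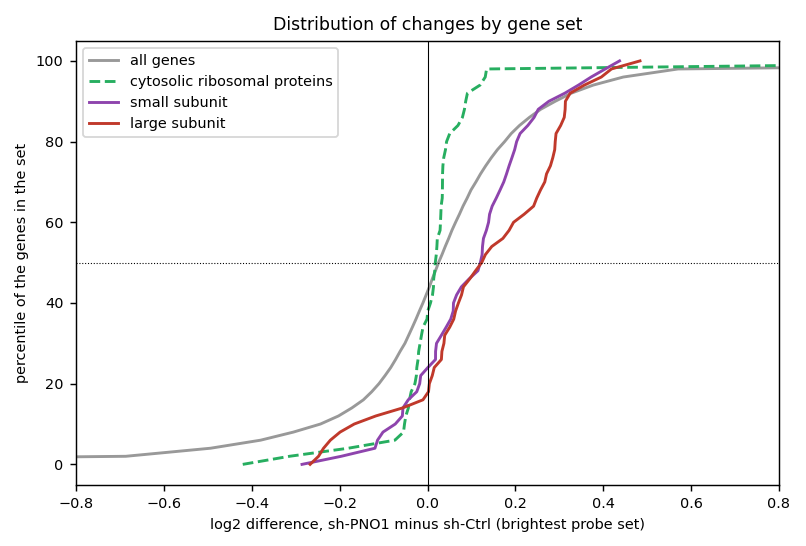
Percentile of the genes in a set (vertical axis) against their log2 difference on the brightest probe set (horizontal axis, sh-PNO1 minus sh-Ctrl, shown from −0.8 to 0.8), for all 18132 genes, 65 cytosolic ribosomal protein genes, and the 28 small- and 47 large-subunit mitoribosomal genes. Both mitoribosomal curves cross the 50th percentile at 0.12, all genes at 0.03 and cytosolic ribosomal protein genes at 0.02.

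Proteins with a bacterial counterpart and proteins particular to mitochondria, as the RefSeq synonyms class them, both held more increases than decreases. Of 43 genes with a bacterial counterpart 18 rose (41.9%) and 4 fell (9.30%), with a median of 0.12. Of 31 mitochondria-specific genes 13 rose (41.9%) and 3 fell (9.68%), with a median of 0.08. Over all genes 18.4% rose and 13.2% fell. The synonyms give no class for MRPS28. Among the mitochondria-specific small-subunit symbols, 4 of 13 rose and none of the 13 fell in limma, with 1 lower at an unadjusted p under 0.05. In the large subunit 9 of 18 such genes rose and 3 fell. MRPS30 and MRPS18A carry small-subunit symbols but are named mL65 and mL66 in the uniform nomenclature, as proteins of the large subunit. With both moved there, 22 of 49 large-subunit genes rose and 6 fell, 9 of 26 small-subunit genes rose and 1 fell, and the medians stayed at 0.12 each.

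Fewer genes of the cytosolic ribosome were called in the same fit. Of 65 cytosolic ribosomal protein genes read from their brightest probe set, 3 rose and 3 fell, with a median of 0.02. That was 4.62% in each direction, beside 18.4% higher and 13.2% lower over all genes. The quartiles were −0.02 and 0.04, and the full range ran from −0.42 to 1.72. No test between the 2 kinds of ribosomal protein was made.

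Among the proteins of the large-subunit core, the largest increase was that of MRPL4 (uL4m), whose bacterial counterpart lines the tunnel through which the new protein leaves. Its intensities were 192, 182 and 190 in sh-Ctrl and 255, 273 and 261 in sh-PNO1 (log2 difference 0.48 ± 0.05 SE, limma adjusted p = 1.94e-04). Every sh-PNO1 array stood above every sh-Ctrl array, and 3 of its 4 probe sets rose; the other, near an intensity of 10, stood at −0.16. The 250 bases upstream of its first listed start (GRCh38.p14, chr19:10251701-10251950, plus strand, from RefSeq) are shown because MRPL4 rose most, with each ATTGG, the reverse complement of CCAAT, in capitals.
MRPL4: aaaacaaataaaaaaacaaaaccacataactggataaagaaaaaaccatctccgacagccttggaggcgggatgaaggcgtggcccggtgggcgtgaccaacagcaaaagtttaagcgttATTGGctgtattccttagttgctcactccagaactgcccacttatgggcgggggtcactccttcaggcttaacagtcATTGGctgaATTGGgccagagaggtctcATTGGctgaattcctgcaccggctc
This stretch holds 4 matches, all on the minus strand. The letters CCAAT, a box bound by the factor NF-Y, were searched on both strands after this sequence had been seen. At least 3 matches upstream of the start were found for 3 of 68 members (MRPL4, MRPL41 and MRPS12), or 4.41%, and for 3.59% of 15843 protein-coding genes. At least 1 match was found for 27.9% of members and 34.5% of protein-coding genes. Among the members that was 13 of 29 that rose, 0 of 5 that fell and 6 of 34 not called. The 29 include MRPL4, whose sequence had been seen before the search, so this split is no test. A match is a description of letters and shows no binding.

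MRPL3 (uL3m), a core protein near the peptidyl transferase centre in bacterial ribosomes, went from 1707, 1678 and 1714 to 2214, 2163 and 2105. The log2 difference was 0.35 ± 0.04 SE (limma adjusted p = 6.08e-04), and its other probe set gave 0.37. MRPL27 (bL27m), whose bacterial counterpart reaches towards the same centre, went from 873, 848 and 863 to 1056, 1061 and 1094 (0.31 ± 0.04 SE, adjusted p = 9.20e-04) on its only probe set. The groups of both genes lay apart with no overlap. MRPL30 (uL30m) read 393, 401 and 388 against 485, 498 and 487 (0.31 ± 0.04 SE), and all 3 of its probe sets rose. MRPL15 (uL15m) read 687, 730 and 678 against 868, 862 and 871 (0.31 ± 0.05 SE), while its other probe set, near an intensity of 9, stood at −0.05. MRPL19 (bL19m) read 680, 684 and 708 against 947, 898 and 877 (0.39 ± 0.05 SE), but its second probe set fell, as described below.

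Several mitochondria-specific proteins of the large subunit rose as well. MRPS30 (mL65) went from 767, 769 and 771 to 1035, 1049 and 1040 (0.44 ± 0.04 SE, limma adjusted p = 1.30e-04). It had the smallest adjusted p of the 75 genes, and the 3 values in each group lay close together. MRPL49 (mL49) went from 401, 390 and 388 to 545, 509 and 516 (0.41 ± 0.05 SE, adjusted p = 3.63e-04), and MRPL43 (mL43) from 427, 416 and 454 to 521, 531 and 537 (0.29 ± 0.05 SE, adjusted p = 0.00272). In both genes the groups did not overlap. MRPL50 (mL50) was the least steady of the 12 largest increases. It read 183, 208 and 190 against 257, 248 and 215, so that the lowest sh-PNO1 array lay just above the highest sh-Ctrl array (0.31 ± 0.08 SE, adjusted p = 0.0207). Its call was lost without sh-Ctrl replicate 1 (0.27, adjusted p = 0.0837), sh-Ctrl replicate 3 (0.29, 0.078), sh-PNO1 replicate 1 (0.26, 0.081) or sh-PNO1 replicate 2 (0.28, 0.0776). The other MRPL50 probe set stood at 0.07 and was not called.

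In the small subunit the largest increases by symbol, after MRPS30, were those of MRPS18C and MRPS7. MRPS18C (bS18m) is the member of a 3-gene family that takes the place of bacterial S18. It read 658, 630 and 653 in sh-Ctrl and 862, 844 and 815 in sh-PNO1 (0.38 ± 0.05 SE, limma adjusted p = 5.20e-04), and all 3 of its probe sets rose. MRPS7 (uS7m), which in bacteria nucleates the head of the subunit, read 580, 595 and 623 against 769, 747 and 734 (0.32 ± 0.05 SE), with both probe sets higher. No sh-PNO1 array of either gene fell within the sh-Ctrl range. The other 7 small-subunit genes that rose, MRPS30 apart, did so by 0.14 (MRPS23) to 0.26 (MRPS5). Of the 3 MRPS5 probe sets 2 rose and the lowest stood at −0.10, and MRPS5 was not called with its probe sets averaged. MRPS21 (0.18), MRPS23 (0.14) and MRPS9 (0.20) were not called in every set of 5 arrays. MRPS21 and MRPS23 lost their calls whichever array was left out, with adjusted p up to 0.122 and 0.095. MRPS9 lost its call without sh-Ctrl replicate 3, sh-PNO1 replicate 2 or sh-PNO1 replicate 3, with adjusted p up to 0.061.

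**Figure D3:**
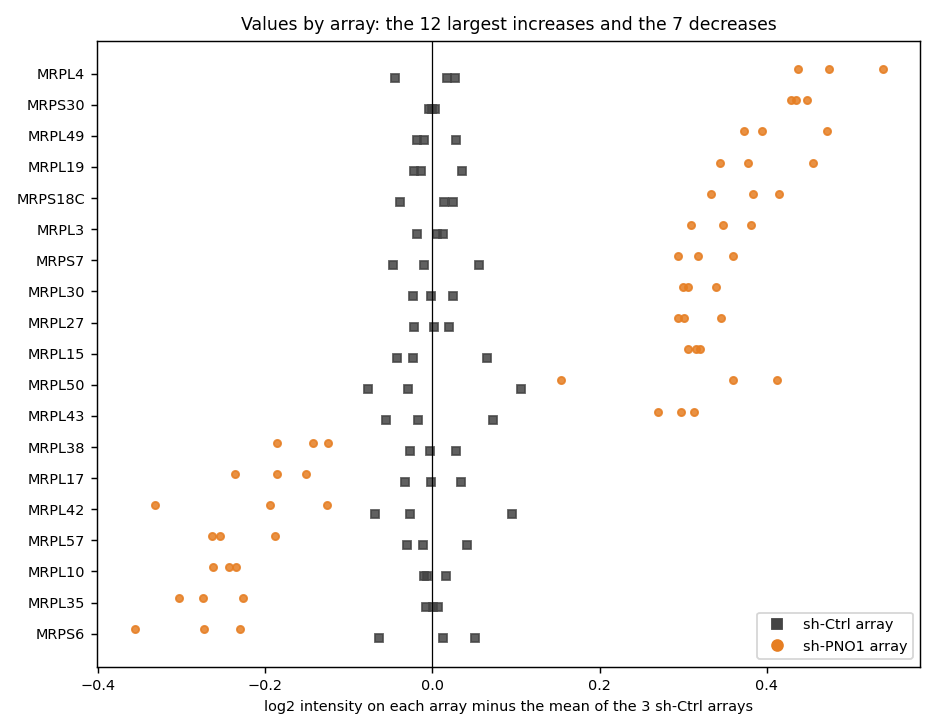
Log2 intensity on each array minus the mean of the 3 sh-Ctrl arrays (horizontal axis) for the 12 largest increases and the 7 decreases, on the brightest probe set; grey squares are sh-Ctrl and orange circles sh-PNO1 arrays. The groups do not overlap in any of the 19 genes, and MRPL50 and MRPL42 have the narrowest gaps.

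The 7 genes that fell were 6 of the large subunit and 1 of the small. MRPS6 (bS6m), whose bacterial counterpart pairs with S18 on the platform of the small subunit, read 180, 176 and 166 in sh-Ctrl and 136, 144 and 148 in sh-PNO1 (−0.29 ± 0.05 SE, limma adjusted p = 0.00476). MRPL35 (bL35m) read 402, 403 and 399 against 325, 343 and 332 (−0.27 ± 0.04 SE, adjusted p = 0.00221), with 2 of 4 probe sets lower and the highest at 0.0005. MRPL10 (uL10m), the base of the stalk that recruits translation factors, read 442, 435 and 434 against 370, 365 and 372 (−0.25 ± 0.04 SE, adjusted p = 0.0025) on its only probe set. In these 3 genes every sh-PNO1 array lay below every sh-Ctrl array, and the calls held with any array left out. MRPL57 (mL63) read 970, 923 and 936 against 791, 786 and 828 (−0.24 ± 0.05 SE), and its call also held.

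The other 3 decreases were weaker. MRPL42 (mL42) read 468, 509 and 454 against 437, 379 and 417 (−0.22 ± 0.07 SE, limma adjusted p = 0.0471). It was called with 5 arrays only when sh-PNO1 replicate 1 was the one left out, and otherwise had adjusted p-values of 0.0639 to 0.152, the highest without sh-Ctrl replicate 2. MRPL38 (mL38), a protein of the central protuberance, read 285, 274 and 279 against 246, 253 and 256 (−0.15 ± 0.04 SE). It was called with 5 arrays only without sh-PNO1 replicate 3, and otherwise had adjusted p-values of 0.0552 to 0.093, the highest without sh-Ctrl replicate 1. MRPL17 (bL17m) read 677, 694 and 663 against 576, 611 and 596 (−0.19 ± 0.05 SE) and lost its call without sh-Ctrl replicate 2 (−0.17, adjusted p = 0.0538). Without that array 4 of the 75 genes were called lower in place of 7.

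Partners within a structure were not all called in the same direction. In the stalk, MRPL10 fell while MRPL11 and MRPL12 were not called. MRPL12 (bL12m), the mobile stalk protein that also binds the mitochondrial RNA polymerase, read 511, 479 and 521 in sh-Ctrl and 516, 514 and 521 in sh-PNO1 (0.04 ± 0.05 SE, limma adjusted p = 0.598). MRPL11 (uL11m) read 525, 537 and 536 against 528, 547 and 539 (0.01 ± 0.04 SE, adjusted p = 0.833). The groups of both genes overlapped. Of the 3 paralogs of bacterial S18, MRPS18C rose, as given above, and neither other one was called on its brightest probe set. MRPS18A (mL66) read 213, 194 and 209 against 207, 215 and 219 (0.06 ± 0.05 SE), and MRPS18B (mS40) read 655, 694 and 682 against 658, 655 and 638 (−0.06 ± 0.04 SE). The dimmer MRPS18A probe set fell by 0.26 (adjusted p = 0.016). DAP3 (mS29), a GTP-binding protein of the small subunit that is also known as a mediator of cell death, read 977, 995 and 996 against 964, 991 and 973 (−0.02 ± 0.04 SE). Its 5 probe sets ranged from −0.02 to 0.05 and none was called. Differences between paralogs or partners were not tested.

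Probe sets of 1 gene did not always move together. Of the 75 genes, 47 had 2 or more probe sets. In 9 of these every probe set rose, in 17 none was called, and in 17 some were called in 1 direction and the rest not. In the other 4, MRPL43, MRPL19, MRPS25 and MRPS16, 1 probe set or more rose and another fell. No gene with 2 or more probe sets had all of them called lower, though every probe set of MRPL42 (−0.36 to −0.19), MRPL17 (−0.19 and −0.16) and MRPL38 (−0.15 and −0.10) lay below 0.

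MRPL43 spread widest. Of its 6 probe sets, the 3 with sh-Ctrl intensities near 400 rose by 0.29 to 0.32, while another went from 87.6, 90.9 and 85.5 to 50.1, 56.9 and 55.3 (−0.70 ± 0.06 SE, limma adjusted p = 8.55e-05). The groups were apart in both directions. The second MRPL19 probe set went from 110, 106 and 99.4 to 74.3, 76.4 and 90.2 (−0.39 ± 0.08 SE, adjusted p = 0.00733), nearly the mirror image of the brighter one. With the probe sets of each gene averaged, neither MRPL43 (0.06, adjusted p = 0.233) nor MRPL19 (0.001, adjusted p = 0.988) was called. MRPS25 (mS25) rose on its brightest probe set (0.19 ± 0.04 SE) and fell on a dim one (−0.24 ± 0.06 SE), and its average was 0.0015 (adjusted p = 0.981). MRPS16 (bS16m) was not called on its brightest probe set (−0.11 ± 0.05 SE, adjusted p = 0.12), while its other probe sets gave 0.22 and −0.21. In MRPL57 the brightest probe set and another fell (−0.24 and −0.52), and the 2 dim ones stood at 0.15 and 0.20; averaged, it was not called (−0.10, adjusted p = 0.0882). Which transcripts each probe set matches was not analysed here.

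**Figure D4:**
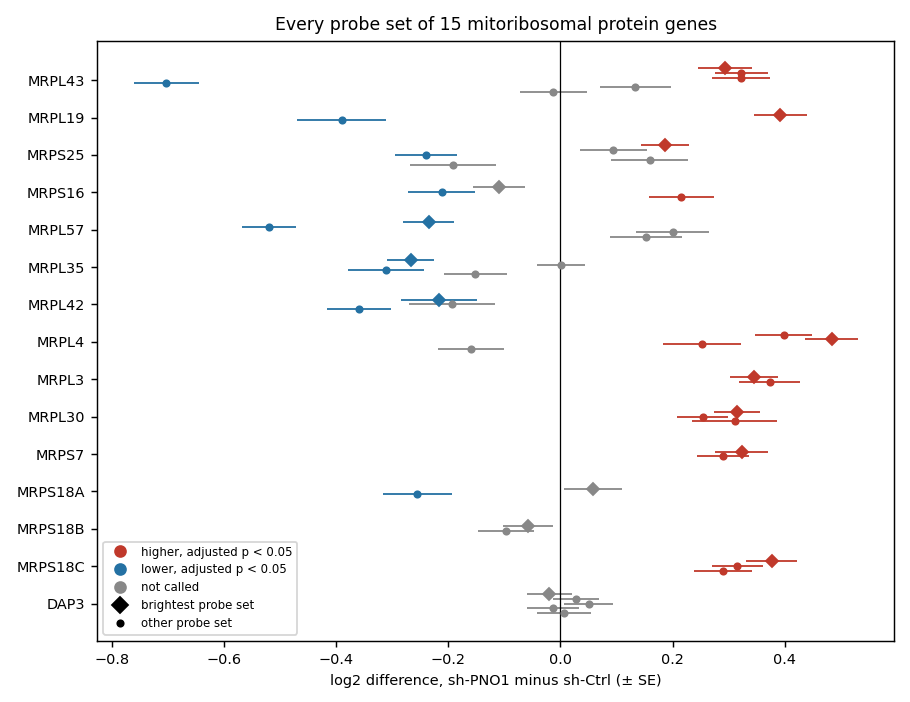
Log2 difference (horizontal axis, sh-PNO1 minus sh-Ctrl, bars ± SE from limma, 3 arrays a group) of every probe set of 15 genes; diamonds are the brightest probe set of a gene and circles the others, coloured red where higher, blue where lower and grey where not called. MRPL43 runs from −0.70 to 0.32 and MRPL19 from −0.39 to 0.39, whereas all probe sets of MRPL3, MRPL30, MRPS7 and MRPS18C lie between 0.25 and 0.38.

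Promoters of the members were read for 3 motifs of factors known to drive nuclear genes of mitochondria, to describe the sequences near the starts of these genes. RefSeq promoters (GRCh38.p14, first listed start, 250 bases before to 50 after it) matched 68 of the 75 genes by symbol. The motifs, searched on both strands, were GCGCANGCG for NRF1, CCGGAAGT for ETS factors such as GABPA, and AAGATGGCG for YY1; each motif was counted on its own, also where matches of different motifs overlapped. NRF1 letters were in 13 of 68 member promoters (19.1%) and in 11.0% of 15843 protein-coding promoters, or 8.05% of all 27305. ETS letters were in 10 (14.7%), against 6.19% and 4.44%. YY1 letters were in 12 (17.6%), against 2.74% and 1.85%. Any of the 3 was found in 30 member promoters (44.1%) and in 18.1% of protein-coding ones. It was found for 12 of 29 members that rose (41.4%), 4 of 5 that fell and had a promoter, and 14 of 34 not called (41.2%). By subunit it was in 21 of 41 large-subunit and 9 of 27 small-subunit promoters. The share with a motif was thus near 41% in members that rose and in members that were not called.

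Windows of 30 bases round matches in 8 named genes that were called are given below, 5′ to 3′ on the gene's strand, with the motif in capitals, to show the matches themselves in genes that rose and in genes that fell. For each motif 1 match per gene is printed; the second matches in MRPL17 and MRPL27, and the matches in MRPL30 and MRPL57, are not shown. The YY1 letters begin 7 to 24 bases after the start, and the NRF1 or ETS letters 8 to 209 bases before it. The ETS letters of MRPL38 are on the opposite strand and so appear as their reverse complement. Coordinates follow in the same order on GRCh38.p14: chr5:44808950-44808979 (plus), chr9:101398576-101398605 (minus), chr12:93467512-93467541 (plus), chr17:75904859-75904888 (minus), chr4:83455912-83455941 (plus), chr11:6683402-6683431 (minus), chr3:131502985-131503014 (minus), chr17:50373174-50373203 (minus) and chr17:75905075-75905104 (minus).
MRPS30, rose, YY1: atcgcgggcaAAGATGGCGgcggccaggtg
MRPL50, rose, YY1: gatctcatcgAAGATGGCGgcgcgatctgt
MRPL42, fell, YY1: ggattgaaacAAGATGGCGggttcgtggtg
MRPL38, fell, YY1: ggccggagggAAGATGGCGgcgccctggtg
MRPS18C, rose, NRF1: gaaaggtgctGCGCATGCGtattgaaaaac
MRPL17, fell, NRF1: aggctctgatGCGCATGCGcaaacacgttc
MRPL3, rose, ETS: tgtaaaacgcaCCGGAAGTgggtccggcgg
MRPL27, rose, ETS: acttttcgagaCCGGAAGTgagtgatcgaa
MRPL38, fell, ETS: gtccaacgggcACTTCCGGagccgggcgtc
The YY1 letters include ATG, and whether it is the translation start of these genes was not tested.

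Messenger RNAs of these factors themselves were lower or not called on their brightest probe sets. Of 10 measured transcription factors and coactivators of nuclear mitochondrial genes 4 fell (40%, beside 13.2% of all genes). None rose in limma, and the median was −0.15. At an unadjusted p under 0.05, 2 stood higher. The 10 include the coactivators PPARGC1A, PPARGC1B and PPRC1, which were not called. PPARGC1A was dim, with a mean intensity of 6.7 in both groups. GABPA, the DNA-binding ETS subunit, went from 138, 176 and 140 to 98.3, 92.3 and 90.7 (−0.68 ± 0.09 SE, limma adjusted p = 0.00101) with 2 of 2 probe sets lower. CREB1 went from 88.6, 91.5 and 80.7 to 59.6, 61.9 and 51.6 (−0.59 ± 0.08 SE), with 6 of 7 lower. YY1 went from 1323, 1489 and 1312 to 1093, 1137 and 1124 (−0.30 ± 0.06 SE, adjusted p = 0.00655), with 7 of 7 lower. In all 3 the groups did not overlap. The other decrease, SP1, was smaller (−0.15 ± 0.04 SE, adjusted p = 0.0392), and its probe sets disagreed, with 1 of 3 lower and 1 higher. NRF1 stood at −0.13 ± 0.07 SE (adjusted p = 0.202), with 1 of 4 probe sets lower.

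Other genes of the mitoribosome pathway were counted against the same shares of all genes, 18.4% higher and 13.2% lower. Of 26 measured assembly factors, which process, modify or fold the mitochondrial rRNAs or join the subunits, 7 rose (26.9%) and 2 fell (7.69%). Their median of 0.03 was that of all genes. The largest was RPUSD4, a pseudouridine synthase of the large mitochondrial rRNA, at 120, 105 and 106 in sh-Ctrl and 272, 247 and 247 in sh-PNO1. It rose by 1.21 ± 0.07 SE (limma adjusted p = 1.37e-05) on 3 of 3 probe sets. RPUSD3, a related synthase, went the other way on its only probe set, from 81.0, 84.2 and 81.0 to 45.0, 49.6 and 44.7 (−0.82 ± 0.05 SE, adjusted p = 2.67e-05). TRUB2, another synthase of mitochondrial RNA, rose by 0.33 ± 0.05 SE on its only probe set, an _x_at one. The groups of all 3 lay wholly apart.

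Of 14 measured mitochondrial translation factors 6 rose (42.9%) and 3 fell (21.4%), with a median of 0.11. MTFMT, which formylates the initiator methionyl-tRNA, fell from 216, 210 and 210 to 118, 129 and 126 (−0.77 ± 0.05 SE, limma adjusted p = 2.40e-05), with 2 of 4 probe sets lower. The initiation factor MTIF3 went from 174, 186 and 186 to 283, 282 and 272 (0.62 ± 0.05 SE) on 1 of 2 probe sets; with the _x_at and _s_at probe sets removed it stood at 0.11 (adjusted p = 0.14). MTIF2, the other initiation factor, rose by 0.28 ± 0.05 SE on its only probe set. Initiation genes thus included the largest increase and the largest decrease of this list.

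Of 9 genes that copy or transcribe mitochondrial DNA 5 rose (55.6%) and 1 fell (11.1%), with a median of 0.21. POLG, the catalytic subunit of the DNA polymerase, rose by 0.34 ± 0.05 SE and its accessory subunit POLG2 by 0.34 ± 0.05 SE. The RNA polymerase POLRMT rose by 0.31 ± 0.05 SE on 1 of 3 probe sets, and was not called with its probe sets averaged (0.14, limma adjusted p = 0.0551). Mitoribosomal proteins with other symbols split: GADD45GIP1 (mL64) rose by 0.24 ± 0.05 SE, CHCHD1 (mS37) stood at 0.13 ± 0.04 SE (adjusted p = 0.0641), and PTCD3 (mS39) fell on its brightest probe set (−0.29 ± 0.05 SE). Of the 6 PTCD3 probe sets 2 fell and 1 rose, and their average was −0.05 (adjusted p = 0.348). The brightest PTCD3 probe set held the same value of 190 on every sh-Ctrl array, which can understate its spread.

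**Figure D5:**
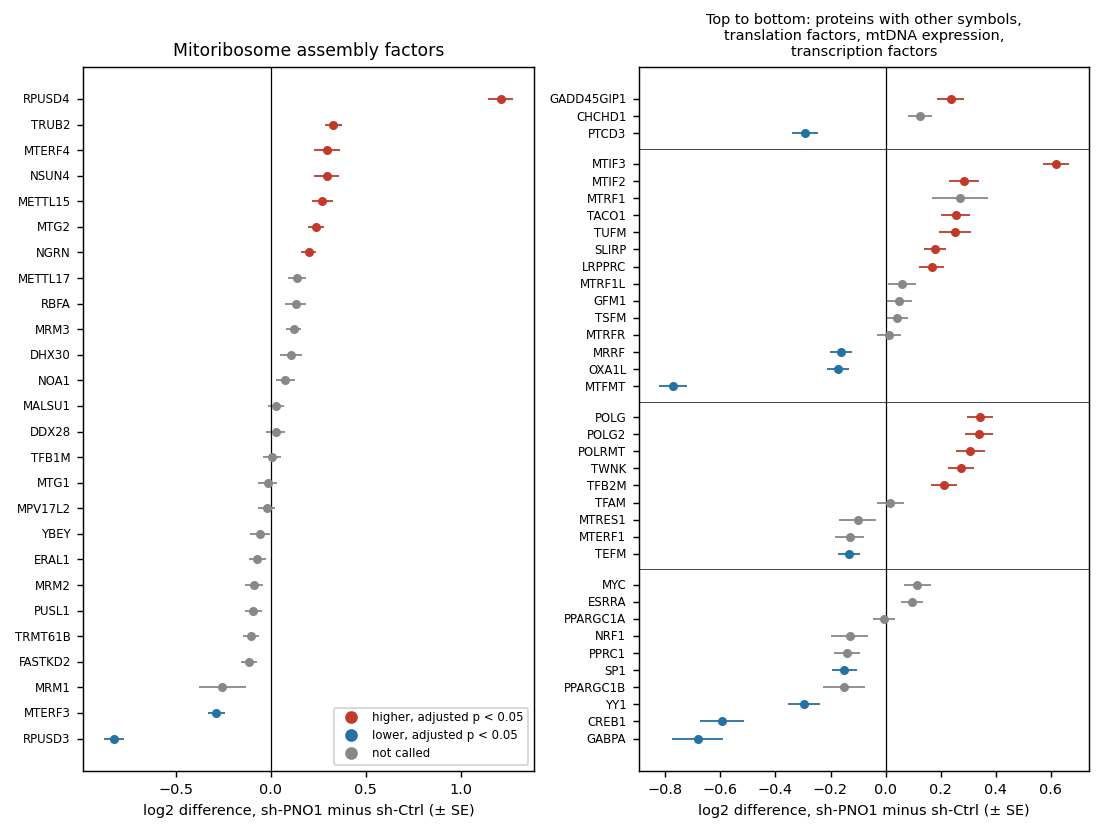
Log2 difference (horizontal axis, sh-PNO1 minus sh-Ctrl, bars ± SE from limma, 3 arrays a group) of the brightest probe set of each related gene: assembly factors on the left, and on the right, from top to bottom, mitoribosomal proteins with other symbols, translation factors, genes of mitochondrial DNA expression, and transcription factors. RPUSD4 (1.21) and RPUSD3 (−0.82) stand at the ends of the left panel, and all 4 called transcription factors lie below 0. The transcription factor list also holds the coactivators PPARGC1A, PPARGC1B and PPRC1.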

How the data were processed

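The authors deposited intensities on a linear scale for 49395 probe sets on 6 arrays, made with RMA per the submitters' processing notes, which summarises probes and normalises between arrays. The software and its version are not given here by any source used. Normalisation makes every change relative to the other probe sets of the same array. Gene names came from the platform annotation: 44988 had 1 symbol, 1832 several, and 2473 were not listed. The 4 probe sets that list a member's symbol with another symbol or gene identifier were left out. Log2 was taken of the intensities with nothing added and no filter. The 102 control probe sets were removed, and the others were fitted together in limma (version 3.58.1, R version 4.3.3; lmFit and eBayes, no covariate, two-sided, Benjamini-Hochberg). A gene was called at an adjusted p under 0.05 on its probe set of highest mean log2. Of the 169 member probe sets 32 hold an identical value on 2 or more arrays, which can understate their spread. The step was tested on simulated data. Genes named are PNO1, every decrease, the 12 largest increases, genes with probe sets called in both directions, the S18 and stalk families, DAP3, and up to 3 genes of each related list by adjusted p, while MRPS5, MRPS9, MRPS21, MRPS23, MRPS12, MRPL41, MRPS28, NRF1 and the marker genes were named after their values were seen. SP1, PPARGC1A, PPARGC1B and PPRC1 were also named after their values were seen. Members and lists were chosen with earlier results of these data known. Alternatives were a block on replicate number, a variance trend with a robust prior, repeated quantile normalisation, equal array medians, the dimmest 30% left out, 1 probe set per gene fitted, probe sets averaged, the most variable probe set, no _x_at or _s_at probe sets, 16 added to intensities, an adjusted p under 0.01, subunits by structure, and each array left out.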

Additional observations from a re-analysis of the deposited data

How the results depend on the processing

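Of 695 values of the 41 named genes other than PNO1 under the alternatives, 650 kept direction and call, 32 lost the call, 9 gained one and 4 turned, all 4 with the most variable probe set read: MRPL19 (−0.39), MRPL43 (−0.70), MRPS25 (−0.24) and MRPS18A (−0.26). That setting also gave 13 decreases in place of 7 and a large minus small median of 0.039; with probe sets averaged the latter was 0.038. An adjusted p under 0.01 left 4 decreases and 8666 probe sets called in place of 13791, and 8711 were called without _x_at and _s_at probe sets, the number fitted being smaller. With 1 array left out the members held 26 to 27 increases and 4 to 6 decreases, the large minus small median ran from −0.018 to 0.038, and PNO1 from −2.35 to −2.32. Deviations of same-numbered arrays had r of −0.04, 0.10 and −0.03, and those of differently numbered arrays −0.05 to 0.09. With 3 arrays a group these values cannot settle whether the numbers pair arrays. With the replicate block 28 members rose and 5 fell, MRPL38 and MRPL42 among the 5 calls lost. A variance trend gave 40 increases and 9 decreases. Shares of all genes called were not set beside the member counts under these alternatives, so those counts describe the members only. Dim signal is a limit. The 23 background probe sets had means from 2.53 to 773, and no background level was set for single genes. Of the 75 genes, 25 had a group mean above the brightest background probe set, and 12 of these 25 were called.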
